A study of Mus musculus with 16 samples.

Results

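Cytochrome P450 genes of families 1 to 4 code for haem enzymes that oxidise drugs, steroids, bile acids, fatty acids and other small molecules, and the liver is their main site. Their messages were followed in cultured mouse hepatocytes after a knockdown of the deacetylases HDAC4 and HDAC5 and after forskolin. A gene was taken as a member where its symbol in the platform annotation began with Cyp, a family number from 1 to 4, a subfamily letter and a number. Of 53 such genes on the array, read by 65 probes, 17 were kept because a probe was detected (detection p under 0.01) on at least 2 of the 16 arrays. The 17 are among 7746 genes tested in all. They comprise 2 of 3 genes of family 1, 7 of 32 of family 2, 2 of 5 of family 3 and 6 of 13 of family 4. Of the 36 genes not kept, 35 were detected on 0 arrays, among them Cyp1a1, Cyp2b10, Cyp2c29, Cyp2e1, Cyp2f2, Cyp3a41a, Cyp4a10 and Cyp4a14. Cyp2j9, just outside the rule, was detected on 1 array. Cyp3a11 and Cyp4f15, just inside it, were each detected on 2 arrays.

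The cells were primary hepatocytes of C57BL/6 mice aged 6 to 8 weeks, and every group received an adenovirus. In the shHDAC45 groups the virus carried short hairpin RNAs against HDAC4 and HDAC5, always together, so the deacetylases cannot be told apart. In the GFP groups it was the control virus, which the titles name GFP and the series text shGFP. Each virus was combined with forskolin, which activates adenylyl cyclase and so raises cAMP, or with its solvent DMSO, for 4 h or 2 h. That gives 8 groups: shHDAC45 with forskolin at 4 h, shHDAC45 with DMSO at 4 h, shHDAC45 with forskolin at 2 h, shHDAC45 with DMSO at 2 h, and the same 4 conditions with GFP. Each group has 2 Illumina arrays, named A and B. Nothing in the labels ties the 2 to separate cultures or animals, so p-values measure the spread between arrays, which may be technical. No group without virus was analysed here.

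Of 24613 probes, 8455 to 10082 were detected per array. Arrays of one group correlated at 0.9919 to 0.9938 and arrays of different groups at 0.8857 to 0.9856 over the 7746 genes tested, and all 16 arrays matched best within their own group. The targets were lower under the hairpins: group means of Hdac5 were 5.76 to 6.72 in shHDAC45 cells against 9.14 to 10.24 in GFP cells, and those of Hdac4 were 5.91 to 6.95 against 7.45 to 8.64 (normalized log2 signal). Averaged over the 4 conditions, Hdac5 differed by -3.50 ± 0.06 (SE, adjusted p = 1.6e-13), Hdac4 by -1.49 ± 0.10 (SE, adjusted p = 2.0e-08) and Hdac7, which the hairpins were not aimed at, by -0.72 ± 0.06 (SE, adjusted p = 1.6e-07). The lowest shHDAC45 means of Hdac5 and Hdac4 lie below 6.04, the lowest signal detected on any array, so background limits these sizes. With forskolin at 4 h, 2 of these 3 genes were called lower and 1 was not called, where 29.0% of all genes tested were lower. Of 10 hepatocyte markers on the array, 6 were measured and Alb, Asgr1, Fgb and Tat were detected on 0 arrays. The DMSO arrays of the 2 times stood apart. The summed linear signal of the 23 acute phase and NF-kB genes on the array was 235296 to 245626 at 4 h and 110722 to 111482 at 2 h in shHDAC45 cells with DMSO, and 70541.6 to 71495.9 at 4 h and 185886 to 197775 at 2 h in GFP cells with DMSO. The direction of this change was opposite in the viruses, and an exchange of labels among the DMSO groups cannot be told apart from a difference between the cells. Such an exchange would change the values below that rest on the DMSO arrays of 1 time, and turn the sign of those that compare the DMSO times. Calls of P450 genes for knockdown with DMSO, for forskolin and between times or viruses are therefore given also with the DMSO arrays of the other time. The knockdown comparisons with forskolin do not use DMSO arrays.

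P450 enzymes of these families sit in the endoplasmic reticulum and take electrons from the reductase Por and from cytochrome b5. Their transcription is set by ligand-activated factors. The aryl hydrocarbon receptor Ahr acts on family 1, PXR (Nr1i2) and CAR (Nr1i3) act on families 2 and 3, and PPARα (Ppara) acts on subfamily 4a. Hepatocyte factors such as Hnf4a act on many members. In liver, P450 messages are known to decline in culture and under inflammatory signals. Members differ in role: family 1 oxidises planar aromatic compounds, families 2 and 3 handle drugs, steroids and bile acids, and family 4 oxidises the ends of fatty acids and eicosanoids.

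The 250 bases before the transcription start are printed, 5′ to 3′, for Cyp1b1, which had the largest positive fitted difference averaged over the conditions under the hairpins, and for Cyp1a2, Cyp2c37 and Cyp2c70, which had the most negative ones. For Cyp1a2 3 and for Cyp2c37 4 of the shHDAC45 groups lay below background, so the order of these 2 against other genes is not settled. The sequences are from RefSeq (GRCm38.p6). Capitals mark the letters CACGC, which read GCGTG, the core of the xenobiotic response element bound by the aryl hydrocarbon receptor, on the other strand. Cyp1a2 lies on the minus strand at chr9:57683656-57683905, Cyp1b1 on the minus strand at chr17:79715062-79715311, Cyp2c37 on the plus strand at chr19:39992174-39992423 and Cyp2c70 on the minus strand at chr19:40187287-40187536.
Cyp1a2: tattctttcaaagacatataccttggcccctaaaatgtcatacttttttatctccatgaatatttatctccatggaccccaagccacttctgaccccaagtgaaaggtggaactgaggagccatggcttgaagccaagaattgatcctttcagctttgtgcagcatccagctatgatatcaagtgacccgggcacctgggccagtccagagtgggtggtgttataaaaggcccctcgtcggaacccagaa
Cyp1b1: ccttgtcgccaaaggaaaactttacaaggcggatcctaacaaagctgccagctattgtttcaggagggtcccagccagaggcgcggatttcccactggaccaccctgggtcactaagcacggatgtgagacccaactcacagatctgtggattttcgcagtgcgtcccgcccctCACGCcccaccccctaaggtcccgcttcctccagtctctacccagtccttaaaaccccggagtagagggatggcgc
Cyp2c37: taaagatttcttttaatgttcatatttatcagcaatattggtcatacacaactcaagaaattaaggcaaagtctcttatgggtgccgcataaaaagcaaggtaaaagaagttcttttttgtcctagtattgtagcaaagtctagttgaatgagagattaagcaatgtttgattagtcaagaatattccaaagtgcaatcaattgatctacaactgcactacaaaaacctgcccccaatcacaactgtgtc
Cyp2c70: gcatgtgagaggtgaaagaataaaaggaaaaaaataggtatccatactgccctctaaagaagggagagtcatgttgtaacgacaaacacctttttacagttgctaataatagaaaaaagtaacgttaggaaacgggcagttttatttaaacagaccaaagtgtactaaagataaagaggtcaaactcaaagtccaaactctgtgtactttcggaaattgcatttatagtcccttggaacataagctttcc
The printed stretch of Cyp1b1 held 58.0% G and C, that of Cyp1a2 47.2%, that of Cyp2c70 36.0% and that of Cyp2c37 34.0%. Motifs were looked for on both strands in windows that reach from 250 bases before the start to 50 after it, which 15 of the 17 genes had (18 windows). GCGTG occurred in 32.4% of 32851 mouse windows and, among the genes described here, in those of Cyp1b1, Cyp4f14, Cyp4f16 and Cyp4v3. In Cyp1b1 the match began at position -76 relative to the start. The cAMP response element TGACGTCA (1.79% of all windows), its short form TGACG (20.8%, and part of the full element) and the direct repeat of AGGTCA with 1 base between the copies (0.0396%) had no match in the 18 windows. In the RefSeq gene order Cyp2d10 and Cyp2d9 on chromosome 15, and Cyp4f14 and Cyp4f13 on chromosome 17, have 0 protein-coding genes between them. Cyp2d22 and Cyp2d10 have 1 between them, and Cyp2c37 and Cyp2c70 on chromosome 19 have 2. The subfamilies 2a, 2c, 2d, 3a and 4f hold close copies, and whether a probe also binds the message of a neighbouring copy was not tested.

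Of the 17 genes, 8 were detected on all 16 arrays: Cyp2a4, Cyp2c70, Cyp2d22, Cyp3a13, Cyp4b1-ps2, Cyp4f13, Cyp4f16 and Cyp4v3. Cyp1b1 and Cyp2d10 were detected on 14 arrays, Cyp2d9 on 11 and Cyp1a2 on 9. The remaining 5 were detected on GFP arrays alone: Cyp2c37 on 8, Cyp4f14 on 4, Cyp2a12 on 3, and Cyp3a11 and Cyp4f15 on 2. Since these 5 passed the detection rule through GFP arrays, a lower signal in shHDAC45 cells was fixed by the rule, and their falls are given as a description. Cyp1a2, detected on 1 shHDAC45 array, would not have been kept without its 8 GFP arrays, so its falls are also a description. Likewise Cyp3a11 and Cyp4f15 were kept through the 2 arrays of GFP with forskolin at 4 h, which fixed a higher signal in that group than in the others. The gap between arrays A and B over the 136 pairs of gene and group had a median of 0.115 log2 units and exceeded 0.5 in 7 pairs. The widest gap was 0.6928, for Cyp2d9 in shHDAC45 cells with forskolin at 4 h. Levels are normalized log2 signals of 1 probe per gene, so they are compared between arrays and not between genes.

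**Figure D1:**
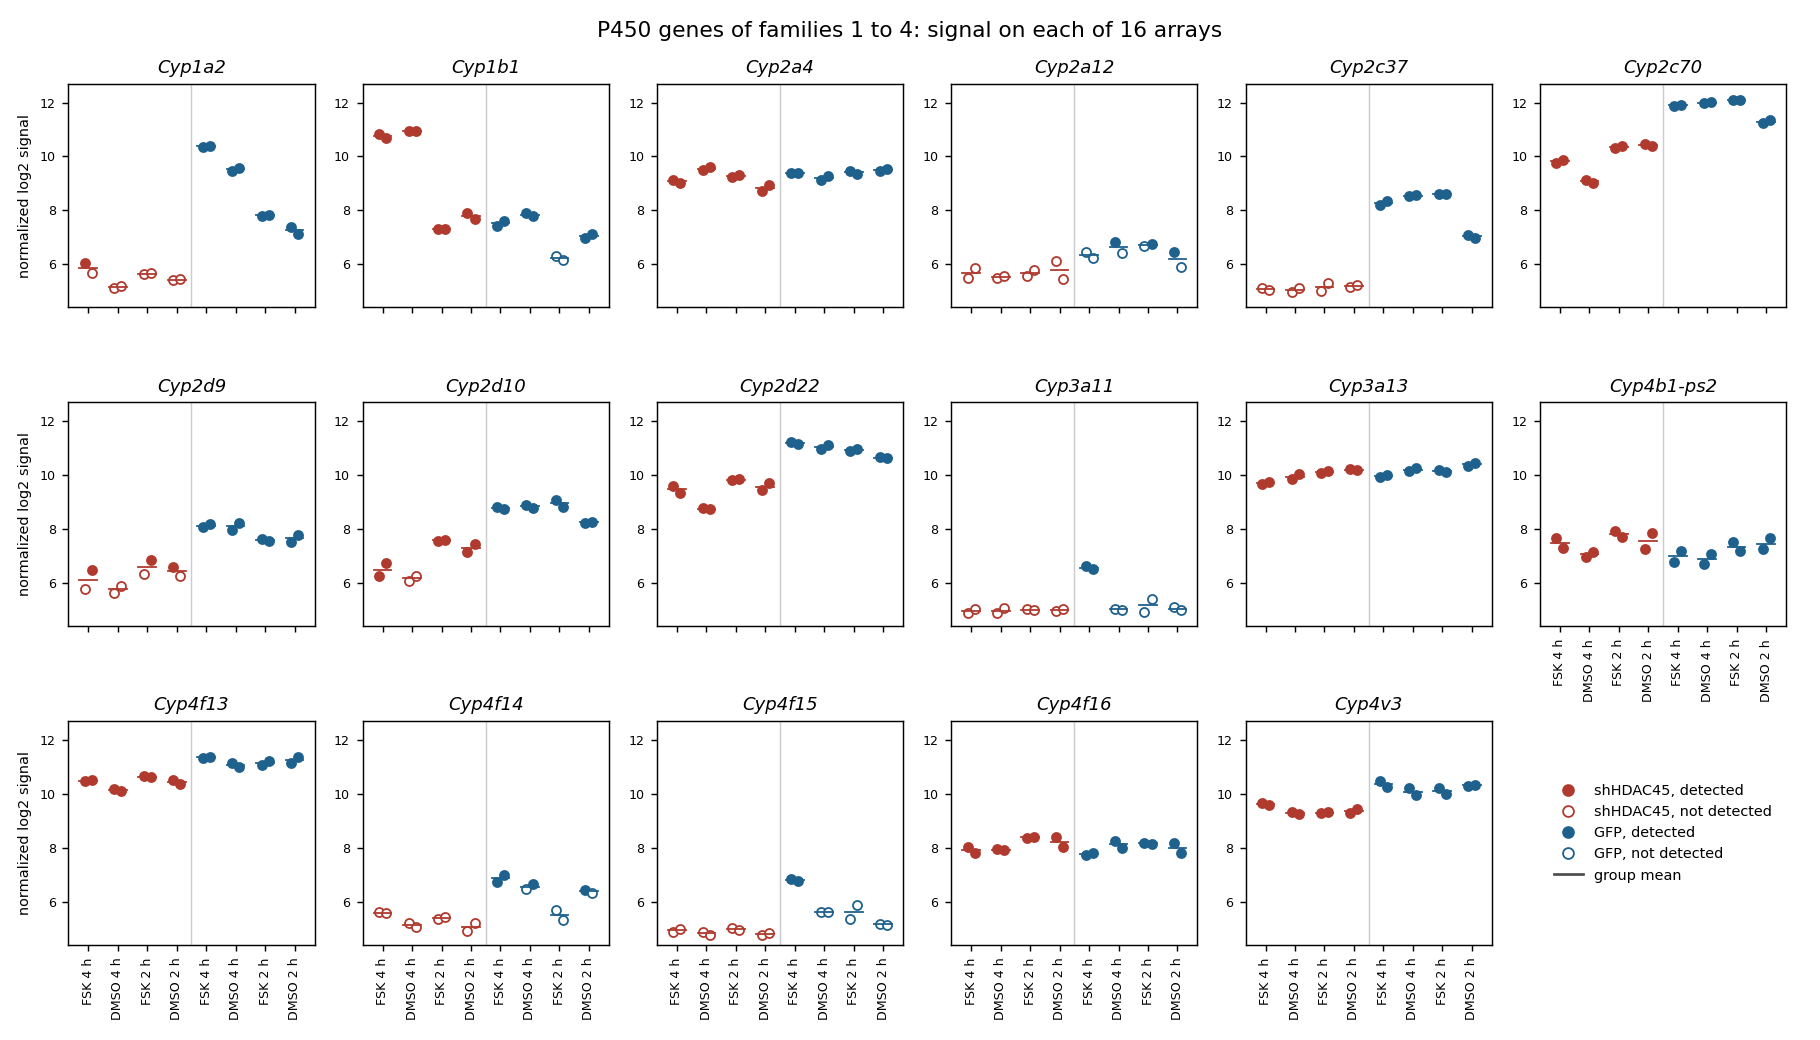
Normalized log2 signal of the 17 P450 genes on each of the 16 arrays, in 1 panel per gene, with forskolin (FSK) or DMSO at 4 h or 2 h on the horizontal axis. Red points are shHDAC45 arrays, blue points GFP arrays, open points arrays without detection, and short lines group means of 2 arrays. Cyp1a2 reads 5.11 to 6.04 in red and 7.14 to 10.40 in blue, whereas Cyp1b1 reads 7.30 to 10.96 in red and 6.15 to 7.90 in blue.

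The question of the first comparison was how these genes differ after knockdown of HDAC4 and HDAC5, in each of the 4 conditions. Of the 12 genes detected on at least 1 shHDAC45 array, most were lower in shHDAC45 cells, among them Cyp2c70 and the 2d subfamily, while Cyp1b1 was higher in every condition. Cyp1a2 is counted among the 12 and was lower too, but it passed the detection rule only through GFP arrays. The test was limma's moderated test in 1 model of 8 group means, adjusted over all 7746 genes of a comparison. A log2 difference of 1 is a 2-fold difference, and SE comes from the pooled spread of groups of 2 arrays. With forskolin at 4 h, 1 gene rose and 14 fell, where 59.1% of all genes tested passed (30.0% higher and 29.0% lower). The counts were 2 and 12 with DMSO at 4 h (52.7% of all genes, 26.6% higher and 26.2% lower), 1 and 10 with forskolin at 2 h (50.1%, 25.4% higher and 24.7% lower) and 1 and 10 with DMSO at 2 h (50%, 25.1% higher and 25.0% lower). For the mean of the 4 conditions 2 rose and 14 fell, beside 73.7% of all genes (37.5% higher and 36.2% lower).

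Among the 12 genes detected on at least 1 shHDAC45 array, 1 rose and 9 fell with forskolin at 4 h, 2 and 8 with DMSO at 4 h, 1 and 7 with forskolin at 2 h and 1 and 8 with DMSO at 2 h. Their median log2 differences were -0.81, -0.86, -0.67 and -0.84 in the same order. With the 5 genes seen on GFP arrays alone, the median over the 17 was -1.29 with forskolin at 4 h, -0.93 with DMSO at 4 h, -0.63 with forskolin at 2 h and -0.81 with DMSO at 2 h. Over all genes tested the medians lay between -0.0049 and 0.0098. On average over the conditions, 2 of the 12 rose and 9 fell. The falls of the 12 include Cyp1a2 in each condition and on average, although it passed the detection rule only through GFP arrays. Among the 8 detected on every array, 1 rose and 6 fell. The calls counted over the 17 include Cyp2a12 with forskolin at 4 h and Cyp4f15 with DMSO at 4 h and with forskolin at 2 h, where both viruses were below background. With the GFP DMSO arrays of the other time, an alternative added after the data had been seen, 1 of the 17 rose and 11 fell with DMSO at 4 h, beside 50.6% of all genes (26.2% higher and 24.3% lower). With DMSO at 2 h 1 rose and 12 fell, beside 51.2% (25.5% higher and 25.7% lower). Of the calls above, 12 of 14 at 4 h and 10 of 11 at 2 h held in direction, and those lost were Cyp2a4 and Cyp4f15 at 4 h and Cyp1b1 at 2 h. Cyp1a2 then differed by -2.12 (adjusted p = 3.6e-08) at 4 h and -4.10 (adjusted p = 2.8e-10) at 2 h. Cyp2c37 differed by -1.98 (adjusted p = 2.2e-08) and -3.36 (adjusted p = 3.8e-10), and Cyp2c70 by -2.21 (adjusted p = 1.9e-09) and -1.58 (adjusted p = 2.4e-08). Which time was farther from 0 thus turned for Cyp1a2 and Cyp2c37 but not for Cyp2c70. Had the shHDAC45 DMSO arrays been exchanged instead, the values of 4 h and 2 h would trade places. The farther time would then turn for Cyp2c70 but not for Cyp1a2 and Cyp2c37, so with DMSO it is not settled. The genes share arrays and, in the subfamilies, sequence, so they are not independent replicates of the knockdown.

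**Figure D2:**
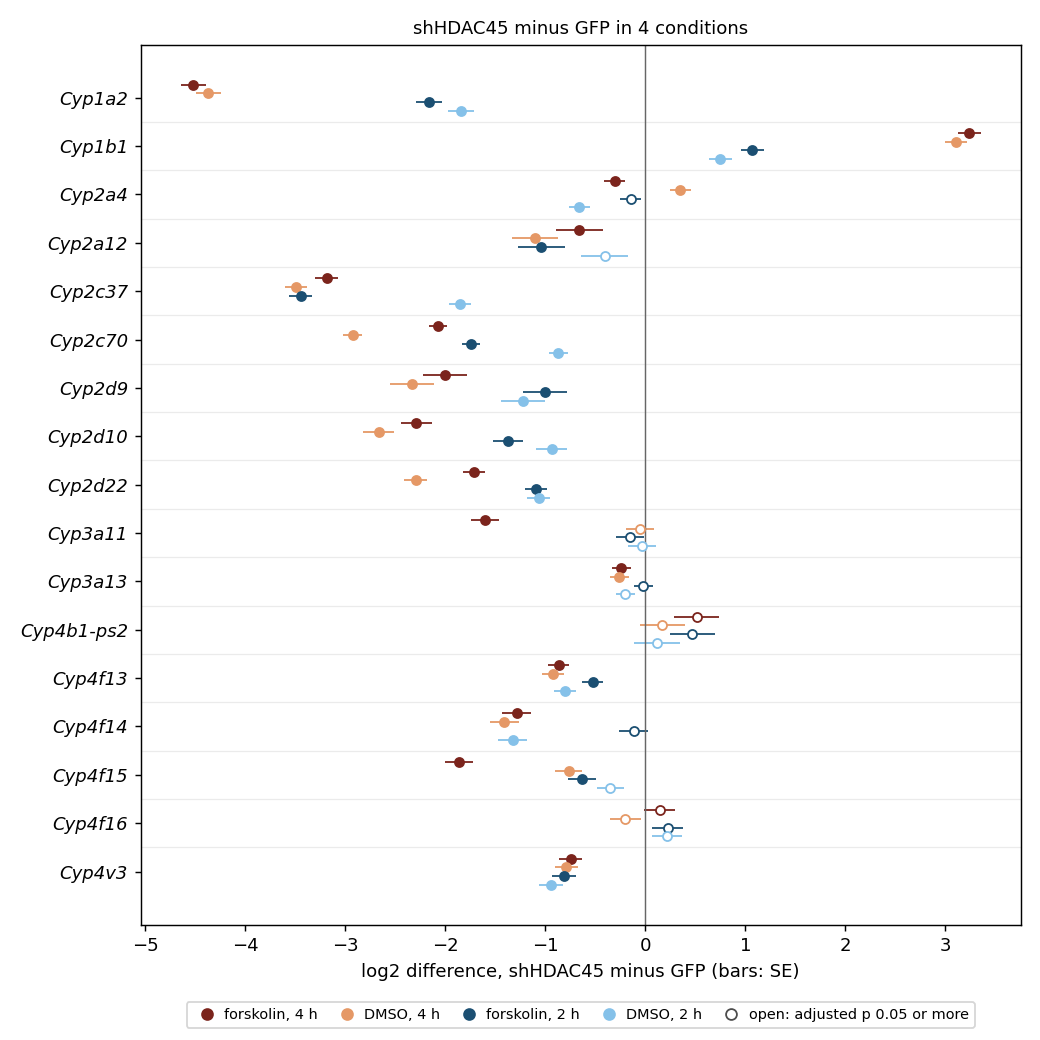
Log2 difference of shHDAC45 minus GFP for the 17 P450 genes with forskolin at 4 h, DMSO at 4 h, forskolin at 2 h and DMSO at 2 h. Points are fitted differences between groups of 2 arrays, bars are SE, and open points have an adjusted p of 0.05 or more. Differences run from -4.52 for Cyp1a2 to 3.24 for Cyp1b1, both with forskolin at 4 h, and those of Cyp1a2, Cyp2c70 and Cyp2d10 are farther from 0 at 4 h than at 2 h.

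In family 1, the genes Cyp1a2 and Cyp1b1 moved in opposite directions. Cyp1a2 oxidises caffeine and aromatic amines and is one of the P450 genes most typical of liver. On shHDAC45 arrays A and B its signal was 6.04 and 5.67 with forskolin at 4 h, 5.11 and 5.18 with DMSO at 4 h, 5.62 and 5.69 with forskolin at 2 h, and 5.40 and 5.44 with DMSO at 2 h. Its GFP arrays read 10.35 and 10.40 with forskolin at 4 h, 9.45 and 9.59 with DMSO at 4 h, 7.80 and 7.84 with forskolin at 2 h, and 7.39 and 7.14 with DMSO at 2 h. Only array A with forskolin at 4 h detected Cyp1a2 in shHDAC45 cells, whereas all 8 GFP arrays did, and the viruses did not overlap. Since Cyp1a2 passed the detection rule only through GFP arrays, its falls are given as a description. With forskolin at 4 h it fell by 4.52 ± 0.13 log2 units (SE, adjusted p = 3.0e-11), with 1 of the 2 shHDAC45 arrays below background. Against shHDAC45 groups below background only a bound can be given. Cyp1a2 was at least 8.49-fold lower with DMSO at 4 h (adjusted p = 5.0e-11), at least 2.53-fold lower with forskolin at 2 h (adjusted p = 3.0e-08) and at least 1.74-fold lower with DMSO at 2 h (adjusted p = 1.2e-07). Such a bound takes the brighter group at its mean, and the dimmer group at the array's detection floor, or at its own signal where that is higher.

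Cyp1b1 oxidises polycyclic hydrocarbons and oestradiol, is another target of the aryl hydrocarbon receptor, and is best known from tissues outside the liver. On shHDAC45 arrays it gave 10.81 and 10.69 with forskolin at 4 h, 10.94 and 10.96 with DMSO at 4 h, 7.31 and 7.30 with forskolin at 2 h, and 7.90 and 7.69 with DMSO at 2 h. GFP arrays read 7.42 and 7.60 with forskolin at 4 h, 7.90 and 7.79 with DMSO at 4 h, 6.32 and 6.15 with forskolin at 2 h, and 6.97 and 7.12 with DMSO at 2 h. The shHDAC45 arrays were above the GFP arrays in each condition, and the 4 shHDAC45 arrays of 4 h stood apart from the other 12. Cyp1b1 rose by 3.24 ± 0.11 (SE, adjusted p = 1.6e-10) with forskolin at 4 h, a 9.45-fold difference, and by 3.11 ± 0.11 (SE, adjusted p = 2.8e-10) with DMSO at 4 h, an 8.62-fold difference. At 2 h it rose by 0.75 ± 0.11 (SE, adjusted p = 0.00011) with DMSO, and with forskolin it was at least 1.48-fold higher (adjusted p = 5.1e-06), since neither GFP array detected it. With the GFP DMSO arrays of the other time it was 3.90 (adjusted p = 8.1e-11) with DMSO at 4 h and -0.046 (adjusted p = 0.75) with DMSO at 2 h, so the rise with DMSO at 2 h was lost. With the shHDAC45 DMSO arrays exchanged instead, these values would trade places, and the rise with DMSO at 4 h would be lost. The rises with forskolin use no DMSO arrays. The third gene of family 1 on the array, Cyp1a1, the classical gene induced through the aryl hydrocarbon receptor, was detected on 0 arrays.

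In subfamily 2c, both kept genes were lower in shHDAC45 cells in all 4 conditions. Cyp2c37 oxidises arachidonic acid. On shHDAC45 arrays it read 5.13 and 5.04 with forskolin at 4 h, 4.97 and 5.14 with DMSO at 4 h, 5.03 and 5.29 with forskolin at 2 h, and 5.14 and 5.23 with DMSO at 2 h. The GFP arrays read 8.19 and 8.36 with forskolin at 4 h, 8.54 and 8.55 with DMSO at 4 h, 8.59 and 8.62 with forskolin at 2 h, and 7.08 and 6.99 with DMSO at 2 h. It was detected on 0 of 8 shHDAC45 arrays and on 8 of 8 GFP arrays, so only bounds can be given. Cyp2c37 was at least 4.49-fold lower with forskolin at 4 h (adjusted p = 1.7e-10), 4.33-fold with DMSO at 4 h (adjusted p = 1.1e-10), 4.36-fold with forskolin at 2 h (adjusted p = 2.9e-10) and 1.49-fold with DMSO at 2 h (adjusted p = 4.1e-08).

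Cyp2c70 makes the muricholic acids, the bile acids that set mice apart from humans. Its shHDAC45 arrays gave 9.75 and 9.88 with forskolin at 4 h, 9.11 and 9.03 with DMSO at 4 h, 10.30 and 10.39 with forskolin at 2 h, and 10.46 and 10.37 with DMSO at 2 h. Its GFP arrays gave 11.87 and 11.90 with forskolin at 4 h, 11.98 and 12.01 with DMSO at 4 h, 12.09 and 12.09 with forskolin at 2 h, and 11.23 and 11.34 with DMSO at 2 h. Every one of the 16 arrays detected it, and the highest shHDAC45 array lay below the lowest GFP array. The log2 difference was -2.07 ± 0.09 (SE, adjusted p = 1.5e-09) with forskolin at 4 h, -2.93 ± 0.09 (SE, adjusted p = 1.0e-10) with DMSO at 4 h, -1.74 ± 0.09 (SE, adjusted p = 1.5e-08) with forskolin at 2 h and -0.87 ± 0.09 (SE, adjusted p = 5.9e-06) with DMSO at 2 h. These are 4.2-fold, 7.61-fold, 3.35-fold and 1.83-fold falls in the same order.

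The kept genes of subfamily 2d also fell in all 4 conditions. Cyp2d10 read 6.25 and 6.75 with forskolin at 4 h, 6.09 and 6.25 with DMSO at 4 h, 7.57 and 7.59 with forskolin at 2 h, and 7.17 and 7.45 with DMSO at 2 h on shHDAC45 arrays. In GFP cells the arrays read 8.82 and 8.76 with forskolin at 4 h, 8.89 and 8.79 with DMSO at 4 h, 9.07 and 8.83 with forskolin at 2 h, and 8.22 and 8.28 with DMSO at 2 h. All GFP arrays lay above all shHDAC45 arrays. It fell by 2.29 log2 units with forskolin at 4 h (adjusted p = 5.8e-08), by 1.37 with forskolin at 2 h (adjusted p = 9.0e-06) and by 0.94 with DMSO at 2 h (adjusted p = 0.00023), each with an SE of 0.15. With DMSO at 4 h, where neither shHDAC45 array detected it, it was at least 5.32-fold lower (adjusted p = 1.7e-08).

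Cyp2d22 is the mouse gene set closest to human CYP2D6, the enzyme of many drugs. It gave 9.61 and 9.35 with forskolin at 4 h, 8.77 and 8.73 with DMSO at 4 h, 9.83 and 9.85 with forskolin at 2 h, and 9.46 and 9.70 with DMSO at 2 h on shHDAC45 arrays. GFP cells gave 11.22 and 11.17 with forskolin at 4 h, 10.97 and 11.12 with DMSO at 4 h, 10.89 and 10.98 with forskolin at 2 h, and 10.66 and 10.64 with DMSO at 2 h. The viruses did not overlap. The log2 difference was -1.72 (adjusted p = 5.4e-08) with forskolin at 4 h, -2.30 (adjusted p = 4.1e-09) with DMSO at 4 h, -1.09 (adjusted p = 4.7e-06) with forskolin at 2 h and -1.07 (adjusted p = 5.7e-06) with DMSO at 2 h, each with an SE of 0.11. Cyp2d9, a testosterone 16α-hydroxylase higher in males, ranged over 5.65 to 6.86 on shHDAC45 arrays and 7.52 to 8.24 on GFP arrays. It fell by 2.00 with forskolin at 4 h (adjusted p = 6.2e-06), 1.01 with forskolin at 2 h (adjusted p = 0.0021) and 1.22 with DMSO at 2 h (adjusted p = 0.00051), and was at least 3.2-fold lower with DMSO at 4 h (adjusted p = 1.8e-06).

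In subfamily 2a, both kept genes were lower in shHDAC45 cells on average over the conditions, but Cyp2a4 did not keep 1 direction in the single conditions. Averaged, Cyp2a4 differed by -0.19 (adjusted p = 0.0053), and by -0.37 with its second probe (adjusted p = 0.00019). Cyp2a12 differed by -0.80 (adjusted p = 3.5e-05), with 5 of the 8 groups below background and a fall fixed by the detection rule. Cyp2a4, a testosterone 15α-hydroxylase, read 9.13 and 9.03 with forskolin at 4 h, 9.50 and 9.60 with DMSO at 4 h, 9.22 and 9.31 with forskolin at 2 h, and 8.71 and 8.93 with DMSO at 2 h on shHDAC45 arrays. The GFP arrays stood at 9.38 and 9.39 with forskolin at 4 h, 9.12 and 9.28 with DMSO at 4 h, 9.47 and 9.35 with forskolin at 2 h, and 9.45 and 9.52 with DMSO at 2 h. It was higher in shHDAC45 cells with DMSO at 4 h, at 0.35 ± 0.11 (SE, adjusted p = 0.014), and lower with DMSO at 2 h, at -0.66 ± 0.11 (SE, adjusted p = 0.0002). With forskolin it was -0.31 (adjusted p = 0.024) at 4 h and -0.15 (adjusted p = 0.27) at 2 h. A second Cyp2a4 probe gave 0.18 with DMSO at 4 h (adjusted p = 0.27) and -0.76 with DMSO at 2 h (adjusted p = 0.00036), so the higher level at 4 h passed with 1 of the 2 probes, and it was lost with the GFP DMSO arrays of the other time, at 0.066 (adjusted p = 0.63). The calls of the first probe at 4 h were lost without any 1 of 2 arrays with DMSO (adjusted p up to 0.11) and of 3 with forskolin (up to 0.12). With forskolin the second probe gave -0.36 (adjusted p = 0.03) at 4 h and -0.55 (adjusted p = 0.0036) at 2 h. Cyp2a12, which hydroxylates bile acids, was detected on 3 GFP arrays and on 0 shHDAC45 arrays, with ranges of 5.44 to 6.11 and 5.90 to 6.84. It was at least 1.15-fold lower with DMSO at 4 h (adjusted p = 0.0015) and at least 1.17-fold lower with forskolin at 2 h (adjusted p = 0.0024). With forskolin at 4 h both viruses were below background (adjusted p = 0.027), and with DMSO at 2 h the test was not passed (adjusted p = 0.17).

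In family 3, Cyp3a11 was seen in 1 group alone and Cyp3a13 on every array. Cyp3a11 is the main drug and bile acid hydroxylase of subfamily 3a in mouse liver and a target of PXR. On shHDAC45 arrays it read 4.90 and 5.03 with forskolin at 4 h, 4.89 and 5.06 with DMSO at 4 h, 5.02 and 5.01 with forskolin at 2 h, and 4.97 and 5.05 with DMSO at 2 h. GFP arrays stood at 6.63 and 6.50 with forskolin at 4 h, 5.04 and 5.02 with DMSO at 4 h, 4.92 and 5.42 with forskolin at 2 h, and 5.10 and 4.99 with DMSO at 2 h. Both arrays of GFP with forskolin at 4 h detected it and the other 14 did not. With forskolin at 4 h it was at least 1.37-fold lower in shHDAC45 cells (adjusted p = 6.7e-07), and in the other 3 conditions both viruses were below background. Cyp3a13 ranged over 9.69 to 10.22 on shHDAC45 arrays and 9.93 to 10.46 on GFP arrays. Its differences were -0.24 (adjusted p = 0.044) with forskolin at 4 h, -0.26 (adjusted p = 0.035) with DMSO at 4 h, -0.02 (adjusted p = 0.86) with forskolin at 2 h and -0.20 (adjusted p = 0.097) with DMSO at 2 h. The call with forskolin at 4 h was lost without any 1 of 10 arrays (adjusted p up to 0.17) and that with DMSO at 4 h without any 1 of 2 (up to 0.23). A second probe of Cyp3a13 passed at neither condition of 4 h (adjusted p = 0.97 with forskolin and 0.24 with DMSO).

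Family 4 held genes that fell in all 4 conditions, genes near the detection limit and genes without a call. The Cyp4f enzymes hydroxylate leukotriene B4 and long fatty acids, and Cyp4v3 is the mouse counterpart of human CYP4V2, a fatty acid hydroxylase. Cyp4f13 ranged over 10.12 to 10.65 on shHDAC45 arrays and 11.01 to 11.39 on GFP arrays, without overlap. It fell by 1.83-fold with forskolin at 4 h (adjusted p = 1.7e-05), 1.9-fold with DMSO at 4 h (adjusted p = 1.2e-05), 1.44-fold with forskolin at 2 h (adjusted p = 0.0013) and 1.75-fold with DMSO at 2 h (adjusted p = 4.4e-05). Cyp4v3 ranged over 9.25 to 9.67 on shHDAC45 arrays and 9.96 to 10.47 on GFP arrays, again without overlap. Its falls of 1.68-fold, 1.73-fold, 1.76-fold and 1.92-fold in the same order of conditions had adjusted p-values of 0.00012, 8.5e-05, 7.5e-05 and 2.1e-05. Of the 17 genes, Cyp4v3 and Cyp4f13 had the narrowest spans between conditions among those that fell in all 4.

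Cyp4f14 read 5.61 and 5.57 with forskolin at 4 h, 5.23 and 5.08 with DMSO at 4 h, 5.36 and 5.44 with forskolin at 2 h, and 4.92 and 5.20 with DMSO at 2 h on shHDAC45 arrays. Arrays of GFP cells read 6.75 and 7.01 with forskolin at 4 h, 6.48 and 6.65 with DMSO at 4 h, 5.70 and 5.33 with forskolin at 2 h, and 6.45 and 6.33 with DMSO at 2 h. It was detected on 4 GFP arrays and on 0 shHDAC45 arrays. It was at least 1.7-fold lower with forskolin at 4 h (adjusted p = 6.9e-06) and at least 1.1-fold lower with DMSO at 4 h (adjusted p = 3.6e-06). With DMSO at 2 h it fell by 1.33 on the log2 scale (adjusted p = 7.4e-06) with no fold that can be bounded, and with forskolin at 2 h both viruses were below background.

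Cyp4f15 read 4.89 and 5.01 with forskolin at 4 h, 4.89 and 4.78 with DMSO at 4 h, 5.03 and 4.97 with forskolin at 2 h, and 4.78 and 4.85 with DMSO at 2 h on shHDAC45 arrays. With the GFP virus the arrays read 6.85 and 6.78 with forskolin at 4 h, 5.61 and 5.61 with DMSO at 4 h, 5.37 and 5.90 with forskolin at 2 h, and 5.20 and 5.13 with DMSO at 2 h. Like Cyp3a11 it was detected on the 2 arrays of GFP with forskolin at 4 h and on none of the other 14. There it was at least 1.63-fold lower in shHDAC45 cells (adjusted p = 1.5e-07). With DMSO at 4 h (adjusted p = 0.00045) and with forskolin at 2 h (adjusted p = 0.0021) it passed the test with both viruses below background, so no fold can be given there.

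Cyp4f16 ranged over 7.79 to 8.42 on shHDAC45 arrays and 7.73 to 8.27 on GFP arrays and passed in no condition (adjusted p between 0.24 and 0.44). Its second probe gave -0.94 with forskolin at 4 h (adjusted p = 0.00092), so the probes of this gene disagree. Cyp4b1-ps2, a pseudogene by its symbol, read 7.69 and 7.32 with forskolin at 4 h, 6.95 and 7.17 with DMSO at 4 h, 7.93 and 7.70 with forskolin at 2 h, and 7.27 and 7.87 with DMSO at 2 h on shHDAC45 arrays. Its GFP values were 6.79 and 7.19 with forskolin at 4 h, 6.72 and 7.06 with DMSO at 4 h, 7.51 and 7.18 with forskolin at 2 h, and 7.25 and 7.67 with DMSO at 2 h. The groups overlapped in some conditions, and the difference passed the test only as the mean of the 4, at 0.32 ± 0.11 (SE, adjusted p = 0.023), a call lost without any 1 of 8 arrays (adjusted p up to 0.062).

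The difference between viruses was farther from 0 at 4 h than at 2 h for several genes. Whether it differed between times was tested with 2 contrasts added after the data had been seen. With DMSO, 2 genes had a more positive and 6 a more negative difference at 4 h than at 2 h, beside 11.0% of all genes tested (5.37% more positive and 5.65% more negative). Cyp1a2 differed by -2.53 ± 0.18 (SE, adjusted p = 6.8e-07), Cyp2c70 by -2.06 ± 0.13 (SE, adjusted p = 2.7e-07) and Cyp1b1 by 2.36 ± 0.16 (SE, adjusted p = 4.3e-07). With forskolin the counts were 1 and 7, beside 17.0% of all genes (8.83% and 8.13%). Among the 7, Cyp3a11, Cyp4f14 and Cyp4f15 had 3 of 4 groups below background. The detection rule fixed the sign of Cyp3a11 and Cyp4f15. Cyp1a2 differed with forskolin by -2.36 ± 0.18 (SE, adjusted p = 2.0e-06) and Cyp1b1 by 2.17 ± 0.16 (SE, adjusted p = 1.5e-06). For Cyp1a2 the shHDAC45 groups at or near background limit how far these values can go. Cyp2d10 and Cyp2d22 had a more negative difference at 4 h under both treatments. For Cyp2d10 it was -1.73 with DMSO and -0.92 with forskolin (adjusted p = 0.00014 and 0.012), and for Cyp2d22 it was -1.23 and -0.62 (adjusted p = 0.0002 and 0.019), where the value with forskolin was lost without any 1 of 4 arrays (adjusted p up to 0.075). With the GFP DMSO arrays of the other time, 2 of the 8 calls with DMSO held in direction, beside 9.17% of all genes (4.63% more positive and 4.53% more negative). Cyp1b1 then gave 3.95 (adjusted p = 3.1e-08) and Cyp2c70 -0.63 (adjusted p = 0.0093). Cyp1a2 turned to 1.98 (adjusted p = 3.2e-05) and Cyp2c37 to 1.38 (adjusted p = 0.0002), while Cyp2d10 gave -0.54 (adjusted p = 0.15) and Cyp2d22 -0.43 (adjusted p = 0.12). An exchange of the shHDAC45 DMSO arrays instead would give these values with the opposite sign. An exchange in both viruses would turn the sign of the first values with DMSO. The time difference with DMSO is therefore not settled for any gene, Cyp1b1 and Cyp2c70 included.

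DMSO arrays of 4 h were set against DMSO arrays of 2 h within each virus, since forskolin is read against different DMSO arrays at the 2 times. In shHDAC45 cells 2 of the 17 genes rose and 3 fell, beside 8.64% of all genes tested (4.48% higher and 4.16% lower). In GFP cells 6 rose and 0 fell, beside 11.7% of all genes (6.04% higher and 5.67% lower). Cyp1b1 was higher at 4 h by 3.15 ± 0.11 (SE, adjusted p = 3.4e-09) in shHDAC45 cells and by 0.80 ± 0.11 (SE, adjusted p = 0.00043) in GFP cells. Cyp2c70 was lower at 4 h by 1.34 log2 units in shHDAC45 cells (adjusted p = 1.5e-06) and higher by 0.71 in GFP cells (adjusted p = 0.00022). Cyp2d22 and Cyp2d10 followed the same split, Cyp2d22 with -0.83 (adjusted p = 0.00049) in shHDAC45 cells and 0.40 (adjusted p = 0.038) in GFP cells, and the call in GFP cells was lost without any 1 of 8 arrays (adjusted p up to 0.22). Cyp2d10 was at least 1.84-fold lower in shHDAC45 cells (adjusted p = 0.00044) and higher by 0.59 in GFP cells (adjusted p = 0.023), where the call was lost without any 1 of 4 arrays (adjusted p up to 0.13).

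Cyp1a2 rose by 2.25 ± 0.13 (SE, adjusted p = 1.0e-07) between the GFP arrays with DMSO, a 4.76-fold difference, and Cyp2c37 by 1.51 ± 0.11 (SE, adjusted p = 1.3e-06), a 2.85-fold difference. In shHDAC45 cells with DMSO both genes were below background at both times. Cyp2a4 rose in shHDAC45 cells by 0.73 (adjusted p = 0.00085), with 0.70 for its second probe (adjusted p = 0.0047), and gave -0.28 (adjusted p = 0.11) in GFP cells. The remaining 10 genes passed in neither virus. Beside these differences, of 22 acute phase and NF-kB genes 15 rose and 0 fell in shHDAC45 cells, and 0 rose and 17 fell in GFP cells. Their part in the differences of the P450 genes was not tested.

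**Figure D3:**
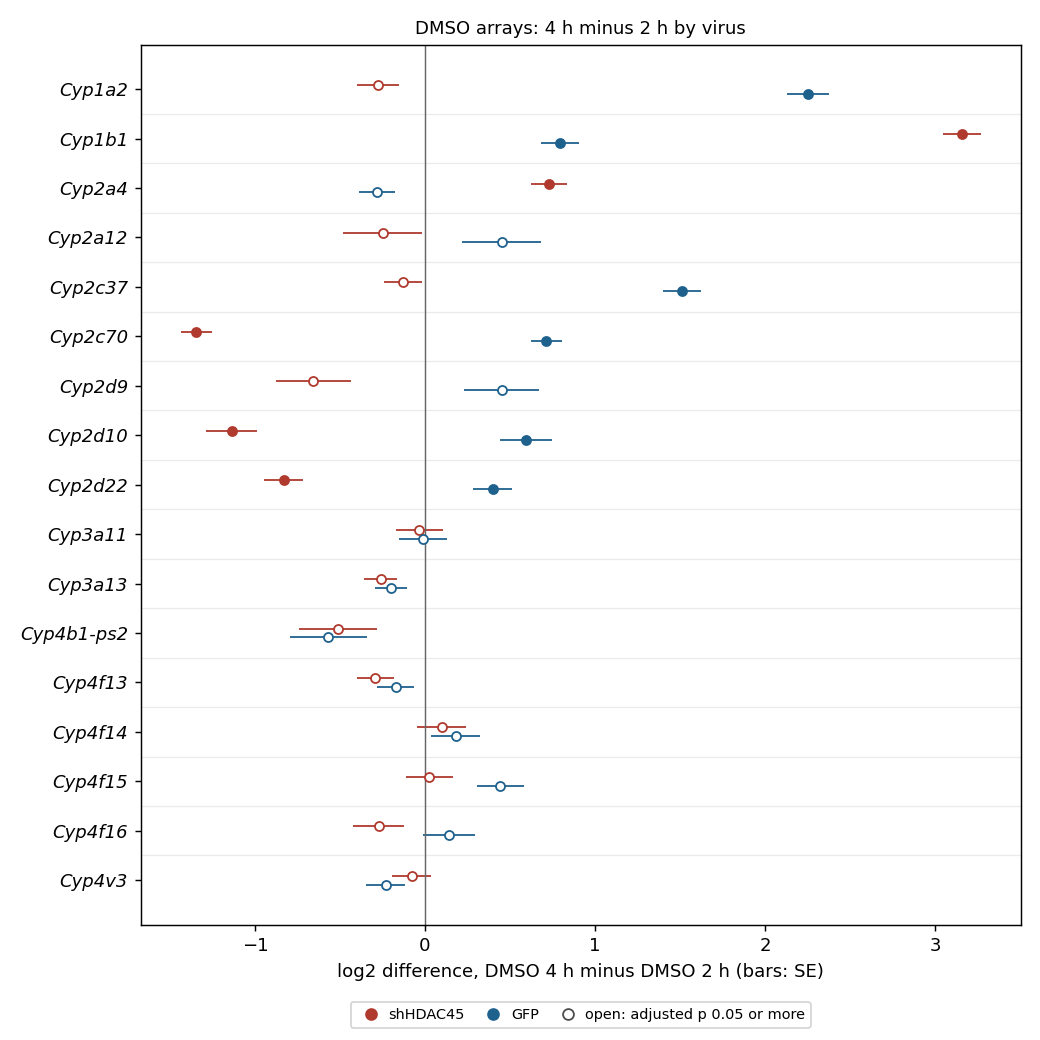
Log2 difference of DMSO at 4 h minus DMSO at 2 h for the 17 P450 genes, in shHDAC45 cells (red) and GFP cells (blue). Points are fitted differences between groups of 2 arrays, bars are SE, and open points have an adjusted p of 0.05 or more. Cyp2c70, Cyp2d10 and Cyp2d22 lie left of 0 in shHDAC45 cells and right of 0 in GFP cells, and Cyp1b1 lies right of 0 in both.

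Forskolin was set against DMSO of the same virus and time, to ask which P450 genes respond to cAMP. In GFP cells at 4 h, Cyp3a11, Cyp4f15 and Cyp1a2 were higher with forskolin and Cyp1b1 was lower. Since Cyp3a11 and Cyp4f15 were kept through these forskolin arrays, their direction was fixed by the rule. The 3 rises and 1 fall stand beside 32.0% of all genes tested (14.4% higher and 17.7% lower). Cyp3a11, detected with forskolin at 6.63 and 6.50 and not with DMSO at 5.04 and 5.02, was higher (adjusted p = 3.2e-06), and no fold can be bounded. Cyp4f15 was at least 1.13-fold higher (adjusted p = 2.5e-05). Cyp1a2 rose by 0.86 ± 0.13 (SE, adjusted p = 0.00018), a 1.82-fold difference, and Cyp1b1 fell by 0.33 ± 0.11 (SE, adjusted p = 0.039). With the DMSO arrays of 2 h in place of those of 4 h, 9 of the 17 rose and 1 fell, beside 38.1% of all genes (18.3% higher and 19.8% lower). Cyp3a11 then differed by 1.52 (adjusted p = 2.7e-06), Cyp4f15 by 1.65 (adjusted p = 1.1e-06) and Cyp1a2 by 3.11 (adjusted p = 1.1e-09), while Cyp1b1 turned to 0.47 (adjusted p = 0.0053). The fall of Cyp1b1 was also lost when any of 7 arrays was left out (adjusted p up to 0.23).

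In GFP cells at 2 h, 5 genes rose and 2 fell with forskolin, beside 21.3% of all genes tested (10.6% higher and 10.8% lower). Cyp2c37 read 8.59 and 8.62 with forskolin and 7.08 and 6.99 with DMSO, a difference of 1.57 ± 0.11 (SE, adjusted p = 3.4e-07). Cyp2c70 rose by 0.80 ± 0.09 (SE, adjusted p = 3.6e-05), Cyp2d10 by 0.71 ± 0.15 (SE, adjusted p = 0.0052) and Cyp1a2 by 0.56 ± 0.13 (SE, adjusted p = 0.0068). Cyp4f15 was below background with both agents, so its call (adjusted p = 0.03) carries no fold. Cyp1b1 was at least 1.24-fold lower (adjusted p = 0.00017), and Cyp4f14 fell by 0.87 ± 0.14 (SE, adjusted p = 0.00079) to below background.

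The rises at 2 h depended on which DMSO arrays were used. Against the GFP DMSO arrays of 4 h, 0 genes rose and 3 fell, beside 16.2% of all genes (6.64% higher and 9.57% lower). Cyp2c37 then differed by 0.06 (adjusted p = 0.76), Cyp2c70 by 0.09 (adjusted p = 0.56) and Cyp2d10 by 0.11 (adjusted p = 0.67). Cyp1a2 turned to -1.70 (adjusted p = 8.7e-07). Cyp1b1 and Cyp4f14 remained lower, at -1.61 (adjusted p = 4.5e-07) and -1.05 (adjusted p = 0.00022). Leaving out DMSO array B of 2 h moved Cyp1a2 to 0.43 (adjusted p = 0.074), and leaving out forskolin array A of 2 h moved Cyp2d10 to 0.59 (adjusted p = 0.051). Beside these rises, of 22 acute phase and NF-kB genes 1 rose and 17 fell with forskolin in GFP cells at 2 h, and their part was not tested.

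**Figure D4:**
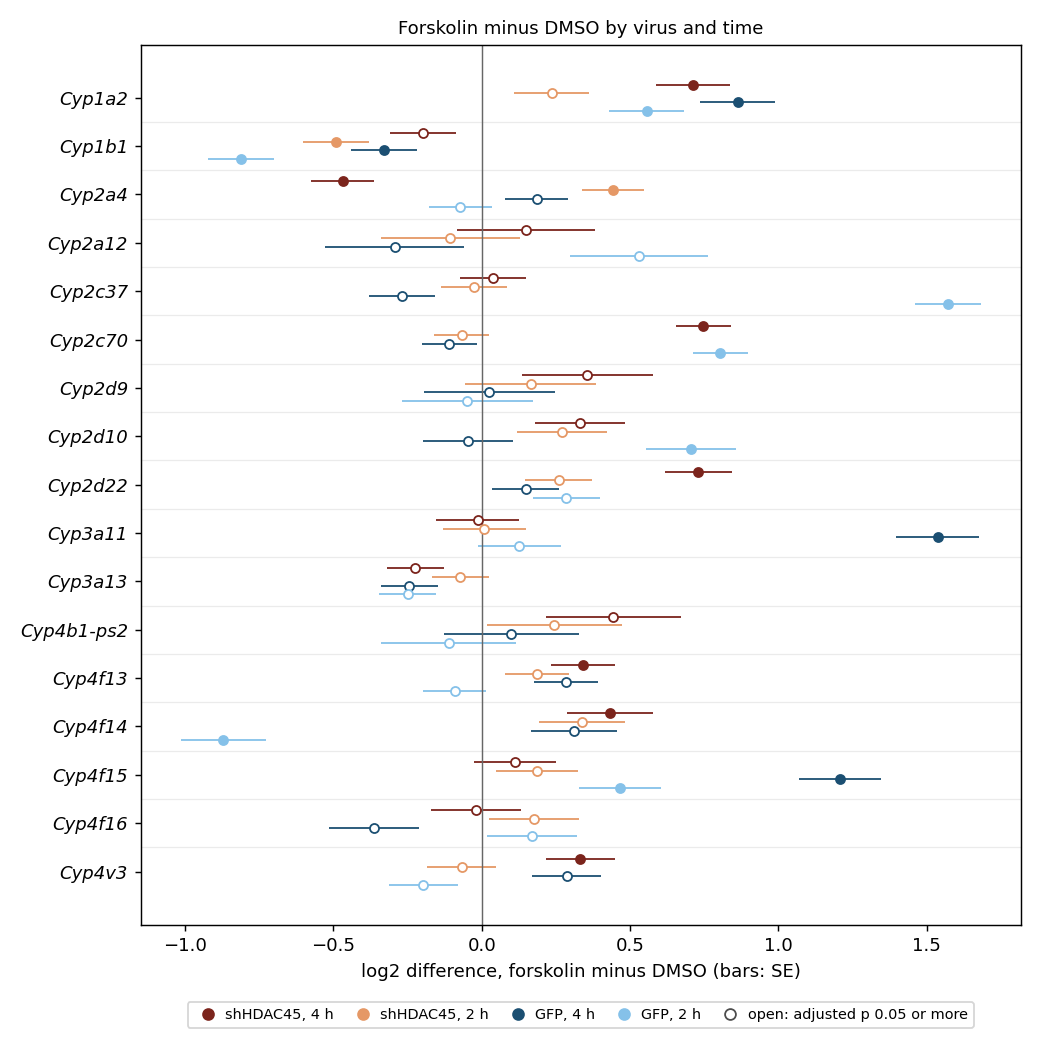
Log2 difference of forskolin minus DMSO for the 17 P450 genes in shHDAC45 cells at 4 h and 2 h and in GFP cells at 4 h and 2 h, each against DMSO of the same virus and time. Points are fitted differences between groups of 2 arrays, bars are SE, and open points have an adjusted p of 0.05 or more. The point farthest to the right is Cyp2c37 in GFP cells at 2 h (1.57), and those of Cyp3a11 and Cyp4f15 in GFP cells at 4 h are fitted against DMSO groups below background.

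In shHDAC45 cells at 4 h, 6 genes rose and 1 fell with forskolin, beside 35.3% of all genes tested (17.4% higher and 18.0% lower). Cyp2c70 read 9.75 and 9.88 with forskolin and 9.11 and 9.03 with DMSO, a difference of 0.75 ± 0.09 (SE, adjusted p = 5.1e-05). Cyp2d22 rose by 0.73 ± 0.11 (SE, adjusted p = 0.00031). Cyp1a2 rose by 0.71 ± 0.13 (SE, adjusted p = 0.00082), with no fold that can be bounded because the DMSO group was below background. Smaller rises were those of Cyp4f13 at 0.34 (adjusted p = 0.026) and Cyp4v3 at 0.33 (adjusted p = 0.041), lost without any 1 of 4 and of 8 arrays (adjusted p up to 0.12 and 0.17), while Cyp4f14 passed (adjusted p = 0.034) with both groups below background. Cyp2a4 fell by 0.47 ± 0.11 (SE, adjusted p = 0.0042), and its second probe gave -0.29 (adjusted p = 0.11). The probes of Cyp4f16 disagreed here too, with -0.02 (adjusted p = 0.93) for the probe used and -0.72 (adjusted p = 0.011) for its second probe. Leaving out shHDAC45 DMSO array A or B of 4 h, or forskolin array B of 4 h, left 4 calls.

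Against the shHDAC45 DMSO arrays of 2 h, 3 genes were higher and 3 lower, beside 40.3% of all genes (20.0% higher and 20.2% lower). Cyp2c70 then turned to -0.60 (adjusted p = 0.00026), Cyp2d22 to -0.10 (adjusted p = 0.51) and Cyp2a4 to 0.26 (adjusted p = 0.069), while Cyp1a2 stayed higher at 0.44 (adjusted p = 0.015). At 2 h in shHDAC45 cells, 1 gene rose and 1 fell, beside 4.80% of all genes tested (2.29% higher and 2.52% lower). Cyp2a4 rose by 0.44 ± 0.11 (SE, adjusted p = 0.029) and Cyp1b1 fell by 0.49 ± 0.11 (SE, adjusted p = 0.023). Neither call held without shHDAC45 DMSO array A of 2 h or without forskolin array A or B of 2 h. Against the DMSO arrays of 4 h, 7 rose and 1 fell, beside 20.4% of all genes (9.33% higher and 11.0% lower). Cyp2d10 was then higher at 1.41 (adjusted p = 2.8e-05), Cyp2c70 at 1.28 (adjusted p = 5.9e-07) and Cyp2d22 at 1.09 (adjusted p = 1.9e-05), Cyp1b1 was lower at -3.64 (adjusted p = 1.1e-10), and Cyp2a4 turned to -0.28 (adjusted p = 0.077).

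Cyp1a2 was the one gene of the 17 with a positive difference between forskolin and the DMSO arrays of the same time in all 4 settings that passed in 3 of them. In shHDAC45 cells the differences were 0.71 at 4 h and 0.24 at 2 h, and in GFP cells they were 0.86 at 4 h and 0.56 at 2 h. The shHDAC45 values carry no fold, since the DMSO group of 4 h and both groups of 2 h were below background. Against the DMSO arrays of the other time, the value of Cyp1a2 in GFP cells at 2 h turned to -1.70 (adjusted p = 8.7e-07). Cyp1b1 had a negative difference in all 4, at -0.20 and -0.49 in shHDAC45 cells and -0.33 and -0.81 in GFP cells, and passed in 3 of them. Against the DMSO arrays of the other time, Cyp1b1 at 4 h turned to 0.47 (adjusted p = 0.0053) in GFP cells and 2.96 (adjusted p = 3.5e-09) in shHDAC45 cells. The remaining values of both genes kept their sign. Forskolin and knockdown comparisons share arrays, so they are given side by side and not counted as separate support.

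The forskolin difference was then tested between times and between viruses. In GFP cells, 4 h minus 2 h was more positive for 5 genes and more negative for 3, beside 26.6% of all genes tested (12.6% and 14.0%). Cyp2c37 gave -1.84 ± 0.16 (SE, adjusted p = 4.4e-06) and Cyp4f14 1.18 ± 0.20 (SE, adjusted p = 0.00097), with 1 of the 4 groups of Cyp4f14 below background. Cyp3a11 and Cyp4f15 are counted among the 5, but each had 3 of 4 groups below background and was kept through the remaining one, so the detection rule fixed their sign. In shHDAC45 cells 1 was more positive and 1 more negative, beside 19.8% of all genes (9.26% and 10.6%). Cyp2c70 gave 0.81 ± 0.13 (SE, adjusted p = 0.00099) there and -0.91 ± 0.13 (SE, adjusted p = 0.00024) in GFP cells, and Cyp2a4 gave -0.91 ± 0.15 (SE, adjusted p = 0.0012) in shHDAC45 cells.

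Between viruses, shHDAC45 minus GFP at 4 h was more positive for 2 genes and more negative for 3, beside 8.57% of all genes (4.80% and 3.77%). Cyp2c70 gave 0.86 ± 0.13 (SE, adjusted p = 0.0012). Of the 3 more negative genes, Cyp3a11 and Cyp4f15 again had 3 of 4 groups below background, with a sign fixed by the detection rule. At 2 h 1 was more positive and 2 more negative, beside 5.96% of all genes (3.12% and 2.84%), with Cyp2c37 at -1.60 ± 0.16 (SE, adjusted p = 4.9e-05) and Cyp4f14 at 1.21 ± 0.20 (SE, adjusted p = 0.0031). Both shHDAC45 groups of Cyp2c37 and 3 of the 4 groups of Cyp4f14 were below background, where a difference cannot show.

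Each of these tests rests on the DMSO arrays that stood apart between times. With the DMSO arrays of the other time, an alternative added after the data had been seen, 4 of 8 calls held in direction between times in GFP cells, 0 of 2 in shHDAC45 cells, 2 of 5 between viruses at 4 h and 1 of 3 at 2 h. The shares of all genes called were then 31.1%, 37.1%, 24.8% and 10% in the same order. Cyp2c70, which passed in all 4, turned to 0.51 (adjusted p = 0.01) in GFP cells, -1.87 (adjusted p = 3.7e-07) in shHDAC45 cells, -1.20 (adjusted p = 2.8e-05) between viruses at 4 h and 1.19 (adjusted p = 7.3e-05) at 2 h. Cyp2c37 turned to 1.18 (adjusted p = 0.00014) between times in GFP cells.

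Genes around the P450 enzymes were read from lists chosen with earlier results of these data known. Of 43 receptors and factors that regulate P450 genes, 26 were measured, and 6 rose and 17 fell in shHDAC45 cells on average over the conditions, with a median log2 difference of -0.58, beside the 73.7% of all genes called for this mean (37.5% higher and 36.2% lower). Hnf4a, the nuclear receptor that maintains hepatocyte genes, gave -1.96 ± 0.06 (SE, adjusted p = 8.0e-12), the bile acid receptor Nr1h4 -1.60 ± 0.05 (SE, adjusted p = 2.7e-11), the forkhead factor Foxa3 -1.25 ± 0.05 (SE, adjusted p = 8.8e-11) and the antioxidant factor Nfe2l2 -1.25 ± 0.05 (SE, adjusted p = 2.1e-10). Ahr, Nr1i3, Ppara and Rxra were not among the measured genes. PXR (Nr1i2) was measured and gave -1.49 ± 0.07 (SE, adjusted p = 3.4e-10). With forskolin in GFP cells at 4 h, 11 of the 26 rose and 1 fell, beside 32.0% of all genes. The coactivator Ppargc1a gave 3.11 ± 0.17 (SE, adjusted p = 3.8e-08), with all DMSO groups below background, Rora 1.60 ± 0.14 (SE, adjusted p = 1.8e-06), Foxa3 1.31 ± 0.10 (SE, adjusted p = 5.8e-07) and Pparg -1.68 ± 0.15 (SE, adjusted p = 3.1e-06).

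Of 9 targets of the aryl hydrocarbon receptor outside the P450 genes, 4 were measured, and 1 rose and 3 fell in shHDAC45 cells. On average over the conditions, 73.7% of all genes passed (37.5% higher and 36.2% lower). The glutathione transferase Gsta1 gave -2.02 ± 0.06 (SE, adjusted p = 8.5e-12), the glucuronosyltransferase Ugt1a6a -1.74 ± 0.06 (SE, adjusted p = 4.2e-11) and the quinone reductase Nqo1 1.45 ± 0.06 (SE, adjusted p = 2.6e-10), and the fourth was Nfe2l2. These 4 genes held both directions, as Cyp1a2 and Cyp1b1 did, and the part of the receptor was not tested. Of 24 PPARα targets, 14 were measured, with 2 higher and 8 lower and a median of -0.50, led by Acadl at -1.54 ± 0.07 (SE, adjusted p = 5.3e-10), a dehydrogenase of fatty acid oxidation. The share of calls among these targets was close to the 73.7% of all genes.

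Of 23 genes of electron supply and haem, 15 were measured, with 5 higher and 6 lower and a median of -0.09, a share of calls close to the 73.7% of all genes. Cytochrome b5 (Cyb5a) gave -0.89 ± 0.05 (SE, adjusted p = 1.2e-09), the reductase Cyb5r1 0.87 ± 0.05 (SE, adjusted p = 2.1e-09), the haem synthesis enzyme Alad 0.64 ± 0.04 (SE, adjusted p = 2.5e-08) and haem oxygenase Hmox1 0.76 ± 0.05 (SE, adjusted p = 2.8e-08). With forskolin in GFP cells at 4 h, Alas1, the first enzyme of haem synthesis, rose by 1.40 ± 0.10 (SE, adjusted p = 5.4e-07), and 1 other gene of this list passed, Cyb5r3 at -0.52 ± 0.10 (SE, adjusted p = 0.002). P450 genes of other families numbered 8, of which 1 rose and 7 fell in shHDAC45 cells with a median of -0.93, beside -0.82 for the 17 of families 1 to 4. Of all genes tested, 37.5% were called higher and 36.2% lower. Cyp39a1, a bile acid enzyme, gave -1.13 ± 0.07 (SE, adjusted p = 7.9e-09), and Cyp26b1, which degrades retinoic acid, gave -1.08 ± 0.06 (SE, adjusted p = 1.4e-09). With forskolin in GFP cells at 4 h the steroid 17α-hydroxylase Cyp17a1 gave 5.10 ± 0.13 (SE, adjusted p = 3.3e-11) against a DMSO group below background, and the bile acid enzyme Cyp8b1 1.72 ± 0.21 (SE, adjusted p = 3.9e-05), also against a DMSO group below background.

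Levels of cell type markers moved between the viruses as well. All 6 measured hepatocyte markers fell in shHDAC45 cells on average, where 36.2% of all genes tested were called lower. The summed linear signal of the 10 markers on the array was 7917.97 to 8695.71 with forskolin at 4 h, 5706.22 to 5950.51 with DMSO at 4 h, 10603.7 to 11638.9 with forskolin at 2 h and 10160 to 10255.2 with DMSO at 2 h in shHDAC45 cells. In GFP cells it was 25622.6 to 26230.3, 23569.6 to 23642.1, 23114.6 to 23350.3 and 15300.8 to 15908 in the same order. In such bulk samples, fewer cells of a type and less RNA per cell cannot be told apart. The part of the hepatocyte markers in the differences of the P450 genes was not tested.

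Markers of other cells did not move one way, where 37.5% of all genes tested were higher and 36.2% lower on average over the conditions. All 6 measured stellate cell or fibroblast markers rose, with sums of 10694.2 to 12791.4 in shHDAC45 cells and 8047.68 to 9447.7 in GFP cells, and Des, Lrat and Pdgfrb were detected on 0 arrays. Of 7 measured endothelial markers 6 rose, with sums of 1558.95 to 2432.12 against 1146.74 to 1628.08, and Kdr and Clec4g were detected on 0 arrays. Of 8 measured macrophage markers 2 rose and 5 fell, with sums of 5573.58 to 11863.9 in shHDAC45 cells and 5809.65 to 10124.4 in GFP cells, and the Kupffer cell genes Clec4f and Cd5l were detected on 0 arrays. All 3 measured cholangiocyte markers fell, with sums of 1057.17 to 1456.16 against 2858.53 to 6849.1, and Epcam and Muc1 were detected on 0 arrays. Of 4 lymphocyte markers on the array 0 were detected, and of 3 neutrophil markers 1 was measured and rose, while Mpo and S100a9 were detected on 0 arrays. Their part in the differences of the P450 genes was not tested.

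The acute phase and NF-kB genes, which are known to move against P450 genes in inflamed liver, had opposite counts at the 2 times in the DMSO comparison of viruses. With DMSO at 4 h, 18 of 22 rose and 1 fell in shHDAC45 cells, beside the 2 higher and 12 lower P450 genes. With DMSO at 2 h, 3 rose and 14 fell, beside 1 higher and 10 lower P450 genes. Of all genes, 52.7% passed with DMSO at 4 h (26.6% higher and 26.2% lower) and 50% at 2 h (25.1% and 25.0%). These counts rest on the DMSO arrays that stood apart between times. Against the GFP DMSO arrays of the other time, the summed signal of the 23 genes on the array was higher in shHDAC45 cells at both times. It was 235296 to 245626 against 185886 to 197775 at 4 h, and 110722 to 111482 against 70541.6 to 71495.9 at 2 h. With forskolin the counts of acute phase and NF-kB genes were 19 and 1 at 4 h and 10 and 5 at 2 h. The shares of all genes called with forskolin were 59.1% at 4 h and 50.1% at 2 h. The chemokine Cxcl1 gave 3.70 ± 0.06 (SE, adjusted p = 8.8e-14) on average and the acute phase protein Crp -2.26 ± 0.06 (SE, adjusted p = 2.9e-12). The part of these genes in the differences of the P450 genes was not tested.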

How the data were processed

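Biotin-labelled cRNA of 16 hepatocyte samples was read on Illumina arrays, 1 per sample. The deposited intensity of each probe is a bead summary on a linear scale, called non-normalized, made in GenomeStudio per the submitters' processing notes, and its version and settings are not given in the sources used here. The deposited p-value beside it is that probe's detection p, per the file headers. A second deposited table of normalized intensity, by a method not given, served as an alternative.

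The background was estimated from intensity and detection p and removed, an offset of 16 was added, and values were quantile-normalized and taken to log2 with limma 3.58.1 under R 4.3.3. Probes detected (p under 0.01) on at least 2 arrays and naming 1 gene were kept, with the brightest probe per gene, which left 7746 genes. Symbols come from the platform annotation. One model of 8 group means gave 15 planned contrasts and 2 added after seeing the data (knockdown by time), with two-sided moderated tests (8 residual and 4.6 prior degrees of freedom) and Benjamini-Hochberg adjustment at 0.05. The number of arrays limits the precision, and quantile normalization gives every array the same distribution of values, whether or not total RNA differed. The fit was tested on simulated data.

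Members, gene lists and tests were chosen with earlier results of these data known. Array values are given for both family 1 genes and for up to 3 largest rises and falls per contrast (2 per interaction), and up to 4 genes are named per list. Other genes named from the lists, Nr1i2 among them, were chosen after their values were seen. Alternatives were no background correction, median scaling, the authors' normalized values, other detection filters, mean of probes, only the arrays compared, the array letter as a block, leaving out each array, and DMSO arrays of the other time (added after seeing the data for knockdown and for tests between times or viruses). Protein sequences were not used here.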

Additional observations from a re-analysis of the deposited data

Results flagged for a closer look

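The forskolin difference of some P450 genes differed between times or viruses by limma's test of that difference, adjusted over all genes. In GFP cells, 4 h minus 2 h, it was 0.48 (adjusted p = 0.039) for Cyp1b1, -1.84 (adjusted p = 4.4e-06) for Cyp2c37, -0.91 (adjusted p = 0.00024) for Cyp2c70, -0.75 (adjusted p = 0.021) for Cyp2d10, 1.41 (adjusted p = 0.0002) for Cyp3a11, 1.18 (adjusted p = 0.00097) for Cyp4f14, 0.74 (adjusted p = 0.014) for Cyp4f15 and 0.48 (adjusted p = 0.045) for Cyp4v3. Of the 4 groups behind each value, 3 were below background for Cyp3a11 and Cyp4f15, whose sign the detection rule fixed, and 1 for Cyp1b1 and Cyp4f14. Leaving out single arrays lost the call of Cyp4v3 in 13 of 16 cases (adjusted p up to 0.17), that of Cyp1b1 in 9 (up to 0.14) and that of Cyp2d10 in 4 (up to 0.076). In shHDAC45 cells, 4 h minus 2 h, it was -0.91 (adjusted p = 0.0012) for Cyp2a4 and 0.81 (adjusted p = 0.00099) for Cyp2c70. A second probe of Cyp2a4 gave -0.57 (adjusted p = 0.047).

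For shHDAC45 minus GFP, the forskolin difference at 4 h was -0.65 (adjusted p = 0.017) for Cyp2a4, 0.86 (adjusted p = 0.0012) for Cyp2c70, 0.58 (adjusted p = 0.042) for Cyp2d22, -1.55 (adjusted p = 0.00032) for Cyp3a11 and -1.10 (adjusted p = 0.0036) for Cyp4f15, the last 2 with 3 of 4 groups below background and a sign fixed by the detection rule. Leaving out single arrays lost the call of Cyp2d22 in 13 cases (adjusted p up to 0.14) and that of Cyp2a4 in 3 (up to 0.071), and the second probe of Cyp2a4 gave -0.54 (adjusted p = 0.095). At 2 h it was -1.60 (adjusted p = 4.9e-05) for Cyp2c37, -0.87 (adjusted p = 0.0013) for Cyp2c70 and 1.21 (adjusted p = 0.0031) for Cyp4f14, where 2 groups of Cyp2c37 and 3 of Cyp4f14 were below background.

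The knockdown difference, 4 h minus 2 h, differed in both treatments. With forskolin it was -2.36 (adjusted p = 2.0e-06) for Cyp1a2, 2.17 (adjusted p = 1.5e-06) for Cyp1b1, -0.92 (adjusted p = 0.012) for Cyp2d10, -0.62 (adjusted p = 0.019) for Cyp2d22, -0.99 (adjusted p = 0.046) for Cyp2d9, -1.45 (adjusted p = 0.00032) for Cyp3a11, -1.17 (adjusted p = 0.0019) for Cyp4f14 and -1.23 (adjusted p = 0.001) for Cyp4f15. With DMSO it was -2.53 (adjusted p = 6.8e-07) for Cyp1a2, 2.36 (adjusted p = 4.3e-07) for Cyp1b1, 1.01 (adjusted p = 0.00055) for Cyp2a4, -1.64 (adjusted p = 1.3e-05) for Cyp2c37, -2.06 (adjusted p = 2.7e-07) for Cyp2c70, -1.73 (adjusted p = 0.00014) for Cyp2d10, -1.23 (adjusted p = 0.0002) for Cyp2d22 and -1.11 (adjusted p = 0.038) for Cyp2d9. Cyp3a11, Cyp4f14 and Cyp4f15 with forskolin had 3 of 4 groups below background, the sign of Cyp3a11 and Cyp4f15 being fixed by the detection rule, and Cyp1a2 and Cyp2c37 with DMSO had 2. These contrasts were added after seeing the data, and both calls of Cyp2d9 were lost when single arrays were left out (9 arrays with DMSO and 14 with forskolin), as was that of Cyp2d22 with forskolin (4 arrays). The second probe of Cyp2a4 gave 0.94 (adjusted p = 0.0048) with DMSO. An exchange of DMSO labels in 1 or both viruses would change the values with DMSO, so their signs are not settled.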

How the results depend on the processing

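Of the 132 called differences of single genes, the authors' normalized values kept 130, median scaling 128, the mean of probes 128, no background correction 127 and no detection filter 121, and the stricter filter kept 113 of 113 that could be tested; the lost calls had the same direction. With only the arrays compared 101 of 116 held. The cause of these losses was not tested. The array letter as a replicate block changed no call (132 of 132); same-lettered arrays of 28 group pairs deviated together with correlations of 0.0491 to 0.307, and the letters are not the labels' replicate numbers. DMSO arrays of the other time turned 6 of 20 forskolin calls and lost 6. The turned values were -1.70 (adjusted p = 8.7e-07) for Cyp1a2 in GFP cells at 2 h, 0.47 (adjusted p = 0.0053) for Cyp1b1 in GFP cells at 4 h, -0.28 (adjusted p = 0.077) for Cyp2a4 in shHDAC45 cells at 2 h, and 0.26 (adjusted p = 0.069) for Cyp2a4, -0.60 (adjusted p = 0.00026) for Cyp2c70 and -0.10 (adjusted p = 0.51) for Cyp2d22 in shHDAC45 cells at 4 h. They gave 3 calls in GFP cells at 2 h, 10 at 4 h and 8 in shHDAC45 cells at 2 h. Added after seeing the data, the GFP DMSO arrays of the other time turned Cyp1b1 with DMSO at 2 h to -0.046 (adjusted p = 0.75) and, for knockdown between times, left 4 calls and turned Cyp1a2 to 1.98 (adjusted p = 3.2e-05) and Cyp2c37 to 1.38 (adjusted p = 0.0002). With the shHDAC45 DMSO arrays exchanged instead, the knockdown values with DMSO at 4 h and 2 h would trade places. Those between times would change sign. For the forskolin difference, DMSO arrays of the other time gave 9 calls between times in shHDAC45 cells, and between viruses 8 at 4 h and 7 at 2 h. Turned were Cyp2c37 1.18 (adjusted p = 0.00014), Cyp2c70 0.51 (adjusted p = 0.01) and Cyp2d10 0.43 (adjusted p = 0.15) between times in GFP cells, Cyp2a4 0.54 (adjusted p = 0.013) and Cyp2c70 -1.87 (adjusted p = 3.7e-07) in shHDAC45 cells, Cyp2a4 0.36 (adjusted p = 0.1), Cyp2c70 -1.20 (adjusted p = 2.8e-05) and Cyp2d22 -0.65 (adjusted p = 0.011) between viruses at 4 h, and Cyp2c37 0.045 (adjusted p = 0.9) and Cyp2c70 1.19 (adjusted p = 7.3e-05) at 2 h. Detection on 4 or more arrays left 2 forskolin calls in GFP cells at 4 h and 3 between viruses at 4 h, since dim genes drop out. The mean of probes left 1 forskolin call in shHDAC45 cells at 2 h and only the arrays compared left 0, and 5 between times in GFP cells. 

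Without single arrays, calls under knockdown numbered 12 to 15 with forskolin at 4 h, 13 to 14 with DMSO at 4 h, 11 to 12 at 2 h with either, and 15 to 16 for the mean. Between times they numbered 7 to 8 with DMSO and 6 to 8 with forskolin. DMSO times gave 5 to 6 calls in shHDAC45 cells and 4 to 7 in GFP cells. Forskolin gave 4 to 7 in shHDAC45 cells at 4 h, 0 to 2 at 2 h (0 without DMSO array A or forskolin array A or B), 3 to 4 in GFP cells at 4 h and 5 to 7 at 2 h. Between times forskolin gave 2 to 4 in shHDAC45 cells (4 without forskolin array B of 4 h) and 6 to 8 in GFP cells, and between viruses 3 to 5 at 4 h (3 without GFP DMSO array A or shHDAC45 DMSO array B) and 3 to 4 at 2 h. Median scaling moved the share of higher calls over all genes with forskolin in GFP cells at 2 h to 59%, against 49.5%, and between viruses at 2 h to 43.2%, against 52.4%. Signals near background limit what can be seen of Cyp2c37, Cyp3a11, Cyp4f14, Cyp4f15 and Cyp2a12, and of Cyp1a2, Cyp2d9 and Cyp2d10 in shHDAC45 cells.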
